A study of Mus musculus with 24 samples.

Results

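*Gzmc*, *Gzmd*, *Gzme*, *Gzmf* and *Gzmg* are 5 neighbouring granzyme genes of the mouse, 5 of the 32285 genes in the deposited matrix. They were taken by symbol, and they were chosen by measured values of these data, since their levels in tumor CD8+ T cells fell when antibodies were added to the PancVAX vaccine. That contrast is therefore described here without a test. The other comparisons ask in which cells the genes were found, how they were shared out among cells and clones, and how they differed with the vaccine, with antibodies given without it and with the preparation.

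The data were single-cell RNA libraries of subcutaneous Panc02 tumors, a pancreatic cancer line of the C57BL/6 strain grown in the flank rather than in the pancreas of wild-type male C57BL/6 mice aged 6 to 7 weeks at implantation. There were 8 treatments. PancVAX, a mix of neoantigen peptides (50 μg, by the study's methods of each peptide, on days 12 and 19, given with the adjuvant AddaVax and a STING agonist), was used alone, with anti-PD-1 (100 μg from day 12), with anti-CTLA-4 (100 μg on days 15 and 22) or with both. By the study's methods, mice given PancVAX without checkpoint antibodies received isotype antibodies too, which the labels do not state. Anti-PD-1, anti-CTLA-4, both antibodies and isotype control were used without it. Tumors were harvested on day 38 and pooled within a treatment. Each treatment gave 1 whole-tumor library and 1 library of Percoll-enriched immune cells, and the labels do not say whether these hold the same mice. The 2 libraries of a treatment summed are called a pool. The 2 preparations were also 2 sequencing batches, so preparation and batch cannot be told apart. Of 144994 barcodes, 57355 passed the limits used, and 10037 of those were CD8+ T cells by their *Cd3*, *Cd8* and *Cd4* UMIs (unique molecular identifiers, each 1 captured RNA molecule). The libraries held 77132398 to 176233225 UMIs over all barcodes. A pool held 674 to 2033 CD8+ T cells and 25 to 64 NK cells. Of the 10037 CD8+ T cells, 734 carried a barcode sequence that also passed in another library.

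Granzymes are serine proteases stored in the granules of cytotoxic T cells and NK cells and delivered into target cells with the help of perforin. Granzymes A and B are the best-studied members. The genes of granzymes C to G lie beside *Gzmb* on the same chromosome, in a stretch that also holds mast cell proteases and cathepsin G, and this group is particular to rodents. In cultured mouse T cells these genes come up after strong or long stimulation with IL-2, and granzymes D to G are also known from NK cells of the pregnant uterus. Granzyme C can kill target cells. The roles of the other 4 proteases are less settled.

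In the RefSeq annotation of GRCm38.p6 the 5 genes lie within 124029 bases of chromosome 14 (chr14:56117619-56241647), all on the minus strand, in the order *Gzme*, *Gzmd*, *Gzmg*, *Gzmf*, *Gzmc*. *Gzmn*, which lies between *Gzmg* and *Gzmf*, had 1 UMI in all CD8+ T cells, while *Gzmb*, next to *Gzmc*, had 47671. The proximal promoters of the 5 genes hold a stretch of 113 bases that could be aligned without a gap and was identical at 85.8% of its positions. It is printed because the 5 genes are described together. The RefSeq sequences read 5′ to 3′ on the minus strand, with the 16 positions that differ among genes in capitals. Their places are chr14:56234658-56234770 for *Gzmc*, chr14:56132598-56132710 for *Gzmd*, chr14:56120631-56120743 for *Gzme*, chr14:56211433-56211545 for *Gzmf* and chr14:56159600-56159712 for *Gzmg*, each 1 to 138 bases before the transcript start that the promoter table uses, which for *Gzmc* lies inside the annotated gene.
Gzmc: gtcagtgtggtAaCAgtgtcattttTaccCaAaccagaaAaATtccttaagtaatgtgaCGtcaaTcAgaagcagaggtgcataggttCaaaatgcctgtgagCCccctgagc
Gzmd: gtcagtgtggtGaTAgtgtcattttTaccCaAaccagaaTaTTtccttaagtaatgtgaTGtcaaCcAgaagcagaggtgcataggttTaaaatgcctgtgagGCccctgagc
Gzme: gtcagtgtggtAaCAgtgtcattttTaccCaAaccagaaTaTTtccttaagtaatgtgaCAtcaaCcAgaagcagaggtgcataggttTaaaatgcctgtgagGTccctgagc
Gzmf: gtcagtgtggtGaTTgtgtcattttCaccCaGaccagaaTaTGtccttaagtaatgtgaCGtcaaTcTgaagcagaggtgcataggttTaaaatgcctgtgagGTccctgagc
Gzmg: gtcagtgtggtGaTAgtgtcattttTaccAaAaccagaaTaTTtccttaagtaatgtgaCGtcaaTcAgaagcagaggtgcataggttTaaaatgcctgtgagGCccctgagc
Within it, *Gzmc*, *Gzmf* and *Gzmg* hold the cyclic AMP response element TGACGTCA, searched on both strands, which 588 of 32851 promoter windows (1.79%) also held. The closest match was TGATGTCA in *Gzmd* and TGACATCA in *Gzme*, each with 1 mismatch. The Runx core TGTGGT was in all 5 windows and in 16.8% of all windows. The letters TGANTCA and TTCNNNGAA, read by AP-1 and STAT factors, were in the window of *Gzmb* and in none of the 5. These matches describe sequence only.

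CD8+ T cells held 26503 UMIs of the 5 genes. *Gzmf* gave 15790 of them, *Gzmc* 5663, *Gzmd* 2213, *Gzme* 2050 and *Gzmg* 787. These are UMIs of RNA 5′ ends and were not divided by gene length, and the near-identical sequences of neighbouring members, above all *Gzmd* and *Gzme*, mean that reads matching several genes may have been dropped or split. Of the CD8+ T cells, 12.1% held at least 1 UMI of any of the 5. The 625 cells with 5 or more UMIs, called high cells from here on, were 6.23% of CD8+ T cells and held 96.2% of the UMIs. A further concentration lay within them, since 66 cells (0.658%) held 50% of all UMIs. The cell with the most held 1318, which was 14.2% of all its UMIs. It came from the whole-tumor library of both antibodies without PancVAX and carried 488 of the 787 *Gzmg* UMIs (62.0%).

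The 5 genes were met in the same cells more often than over all CD8+ T cells, with *Gzmf* or *Gzmc* as the gene found alone. Of the 253 cells with *Gzmd*, 79.4% also held *Gzmf*, which 8.71% of all CD8+ T cells held, and 60.9% held *Gzme*, against 2.40%. Of the 54 cells with *Gzmg*, 81.5% held *Gzmd*, against 2.52%. Deeper cells raise each of these shares together, so they are a description only. Exactly 1 of the 5 genes was found in 731 cells, and that gene was *Gzmf* in 430 and *Gzmc* in 241 of them. All 5 genes were found in 39 cells, which held 8574 UMIs. Among high cells, *Gzmf* had the most UMIs in 470 and *Gzmc* in 121.

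To compare cell types at equal depth, each cell was thinned to 1500 UMIs and shallower cells were left out. After thinning, 8.92% of 9560 CD8+ T cells held a UMI of the 5 genes (95% exact binomial interval, 8.36% to 9.51%). NK cells reached 11.5% (8.35% to 15.2%, 358 cells), conventional CD4+ T cells 4.27% (3.12% to 5.69%) and regulatory T cells 3.03% (1.23% to 6.14%). In B cells, which should lack granzymes, the share was 0.738% (0.422% to 1.20%), and it was 1.02% in neutrophils and 1.19% in macrophages. The median depth was 3872 UMIs in CD8+ T cells, 3135 in NK cells and 2027.5 in B cells, and without thinning the shares were 12.1%, 16.0% and 1.12%. These shares mix treatments. Over the 4 pools without PancVAX the mean share was 17.4% ± 2.83 in CD8+ T cells and 12.5% ± 2.93 in NK cells, and over the 4 with it 4.12% ± 1.35 and 9.03% ± 6.15 (SD, n = 4 each). CD8+ T cells had the higher share in the 4 pools without PancVAX and in PancVAX alone. In PancVAX alone, 0% of 23 NK cells held a UMI. NK cells had the higher share in the 3 pools of PancVAX with antibodies. Low CD8+ T cell levels in these 3 pools led to the choice of the genes, so nothing is read from that order. The shares of CD8+ T cells and NK cells over all treatments and with PancVAX include these pools, so their order is a description only. All intervals cover counting error only.

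**Figure D1:**
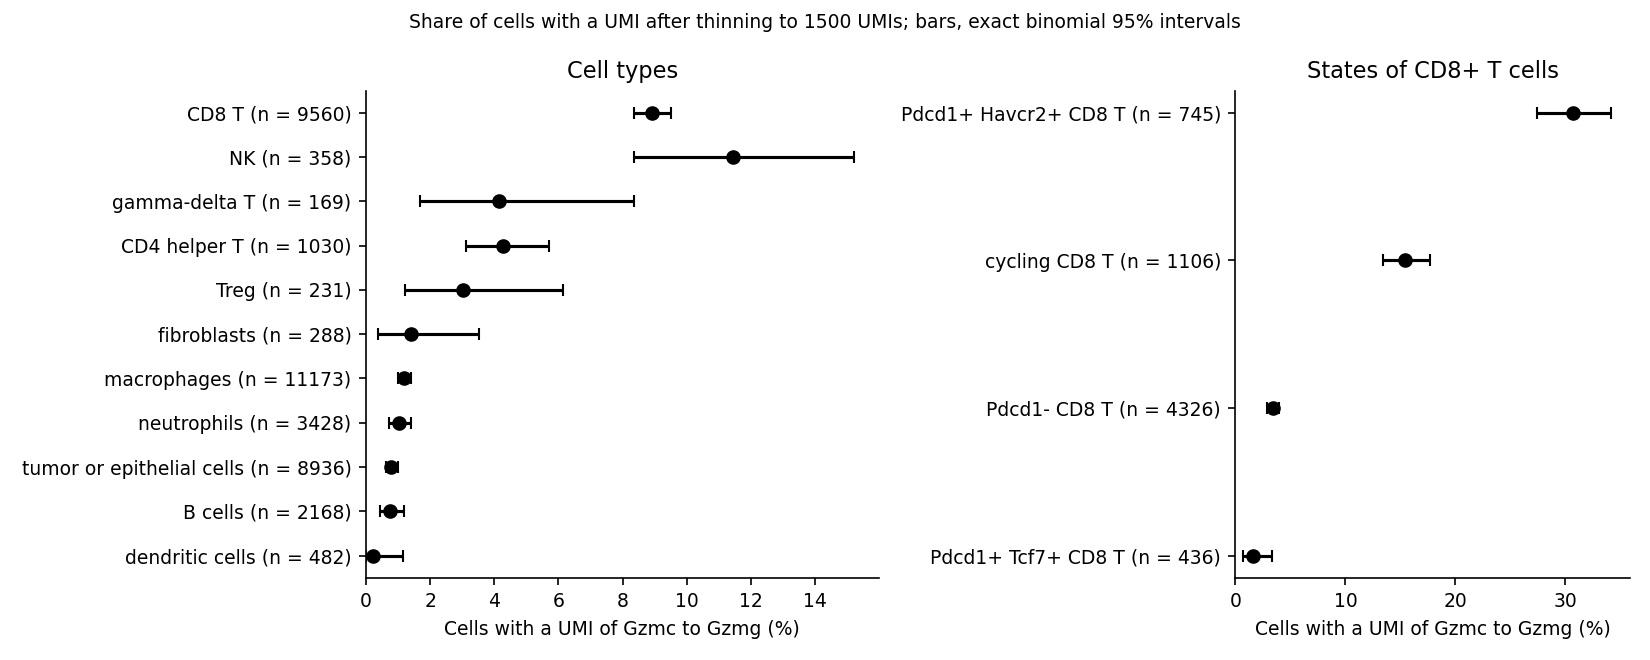
Share of cells with at least 1 UMI of *Gzmc* to *Gzmg* (x axis, %) in 11 cell types (left) and in 4 overlapping states of CD8+ T cells (right), each cell thinned to 1500 UMIs. Bars are exact binomial 95% intervals and n is the number of cells. Cells are pooled over all treatments, with 5944 of the 9560 CD8+ T cells from PancVAX pools. B cells lie at 0.738%, and the *Pdcd1*+ *Havcr2*+ state reaches 30.7%.

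NK cells used 1 gene of the group. Of their 1335 UMIs, 1327 (99.4%) were *Gzmc*, 3 were *Gzmd*, 3 *Gzme*, 2 *Gzmf* and none *Gzmg*, and *Gzmc* was the only one found in 57 of 61 positive NK cells. Over the 8 pools, *Gzmc* averaged 944 ± 566 CPM (UMIs per 1000000 UMIs of the summed cells, SD, n = 8) in NK cells and 146 ± 95.4 CPM in CD8+ T cells. *Gzmf* averaged 2.13 ± 4.37 CPM in NK cells and 410 ± 295 CPM in CD8+ T cells. With the pools as blocks, *Gzmc* was lower in CD8+ T cells by 2.61 ± 0.14 on the log2 scale (log2 fold change of -2.61, SE, edgeR quasi-likelihood, Benjamini-Hochberg adjusted *P* = 1.24e-45; DESeq2, adjusted *P* = 0.00898), and the median of all genes in that fit was 0.12. *Gzmc* was lower in 7 of 8 pools, with PancVAX alone as the exception. The *P* values of the 2 tools lay far apart. Pools ran from 0 to 1615 CPM in NK cells, a spread the edgeR SE does not hold in full. Low CD8+ T cell levels in 3 of the pools led to the choice of genes, so these *P* values carry no support. Over the 4 pools without PancVAX, *Gzmc* averaged 1139 ± 519 CPM in NK cells and 223 ± 62.5 CPM in CD8+ T cells (SD). Of the genes tested 17.4% were called (adjusted *P* under 0.05 and an absolute log2 fold change above 0.5), 11.1% as higher in CD8+ T cells and 6.3% as lower. The other 4 genes entered the fit only through their CD8+ T cell counts, so they are given as ratios without a test. In summed CPM, CD8+ T cells had 239 times the *Gzmf* of NK cells (counting interval 66.1 to 1971), 22.3 times the *Gzmd* (7.62 to 108) and 20.7 times the *Gzme* (7.06 to 100.3). No ratio is given for *Gzmg*, since 1 cell held most of its UMIs. Of 19 other granule genes tested, 5 were lower in CD8+ T cells than in NK cells. They were *Gzma*, *Prf1* (perforin) and the serpins *Serpinb9*, *Serpinb6b* and *Serpinb9b*. As higher, 2 were called, *Gzmk* and *Ctsc*. *Gzmk* lay at 0 to 24.1 CPM in the NK cells of a pool, from few UMIs, so its call supports nothing.

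The NK cells of 1 treatment stood apart. *Gzmc* was at 0 in both libraries of PancVAX alone, which held 11 and 14 NK cells. In the other pools it lay between 404 and 1615 CPM, and single libraries ranged from 15.6 CPM (isotype control, whole tumor) to 2339 CPM (both antibodies, Percoll). Over the 8 pools the PancVAX effect on *Gzmc* in NK cells was -0.72 ± 0.41 on the log2 scale (edgeR, adjusted *P* = 0.702, 0 of 3060 genes called, 256 genes at an unadjusted *P* under 0.05). A library held 11 to 37 NK cells, and 8 cells held 50% of all NK UMIs of the 5 genes. What size of vaccine effect could be detected at this depth was not tested.

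In CD4+ T cells *Gzmf* was scarce. Their 1493 UMIs held 922 of *Gzmc*, 253 of *Gzmd*, 273 of *Gzme* and only 19 of *Gzmf*, and 4 cells held 50% of them. In summed CPM, CD8+ T cells had 95.9 times the *Gzmf* of CD4+ T cells (counting interval 61.4 to 159). *Gzmf* entered the edgeR fit only through its CD8+ T cell counts, so its call there supports nothing. That fit called 15.9% of genes, 6.29% as higher in CD8+ T cells. The other 4 genes gave log2 differences of -0.31 to 1.27 and did not pass. Leaving out the whole-tumor library of PancVAX plus anti-PD-1, whose top CD4+ T cell held 338 UMIs, made *Gzmg* pass, which had 26 UMIs in CD4+ T cells. In γδ T cells, 8 of 173 held a UMI.

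Within CD8+ T cells the 5 genes went with *Pdcd1* (PD-1) and *Havcr2* (TIM-3), receptors of chronically stimulated cells. Of cells with a UMI of both receptors, 30.7% held a UMI of the 5 genes after thinning. The share was 15.5% in cycling cells and 3.40% in cells without *Pdcd1*. It was 1.61% in cells with *Pdcd1* and *Tcf7*, a factor of stem-like T cells, from which cells with a *Havcr2* UMI were left out. These shares mix treatments, and by pool the last 2 states averaged 1.79% and 1.72% with PancVAX and 7.50% and 1.09% without it. The pools of PancVAX with antibodies led to the choice of the genes, so nothing is read from these differences with the vaccine. The interval of the *Pdcd1*+ *Tcf7*+ share, 0.648% to 3.28%, held the shares of B cells, neutrophils and macrophages. A UMI of *Havcr2* is itself easier to find in deep cells, and the median depth of the double-positive cells was 5680 UMIs.

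High cells were next compared with CD8+ T cells without any UMI of the 5 genes, within each of 15 libraries with at least 10 high cells (621 and 8081 cells). The members' own values made these groups, so the comparison is a description. High cells were also deeper, with a median of 6369 UMIs against 3714.5, which CPM divides out only in part. Most high cells (477 of 625) came from pools without PancVAX, so levels are given as medians over libraries. *Gzma*, *Gzmb* and *Prf1* were higher in high cells in 15 of 15 libraries. *Gzma* had a median of 4838 CPM in high cells and 1220 CPM in the others, *Gzmb* 2023 and 548 CPM, and *Prf1* 284 and 113 CPM. *Serpinb9b*, a serpin related to the granzyme B inhibitor *Serpinb9*, was higher in 15 of 15, at 56.2 against 3.02 CPM, and *Serpinb9* and *Serpinb6b* were also higher in all. *Gzmk* was lower in 14 of 15 libraries and *Gzmm* in 15, so the granule genes did not move as 1 group.

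Lists of other genes were compared in the same way. No share of all genes is given beside these counts, so they describe the lists only. Of 9 exhaustion genes, *Pdcd1*, *Havcr2*, *Entpd1* (CD39) and *Cd244a* (2B4) were higher in all 15 libraries, while *Tox* was higher in 6 and *Tigit* in 7. The median of *Havcr2* was 89.2 CPM in high cells and 23.5 CPM in the others. Of 7 memory genes none was higher in most libraries, and *Tcf7*, *Lef1*, *S1pr1*, *Klf2* and *Slamf6* were lower in all. *Tcf7* had 7 UMIs in all high cells. Of 18 activation genes, *Il2rb* (an IL-2 receptor chain), *Tnfrsf9* (4-1BB), *Tnfrsf18* (GITR) and *Irf8* were higher in all, and *Socs1*, *Socs3* and *Tnf* were lower in all. *Fcer1g*, an adaptor of NK and myeloid receptors, was higher in all, at a median of 467 against 173 CPM. *Tyrobp*, another such adaptor, was higher in 6. None of 6 cycle genes was higher in all. Among the neighbours on the chromosome, *Mcpt8*, a protease of basophils, had 33 UMIs in high cells, spread over 11 libraries, and none in the cells without a UMI of the 5 genes. *Cma1*, *Mcpt1*, *Mcpt2* and *Mcpt4* gave 1 to 3 UMIs in high cells.

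**Figure D2:**
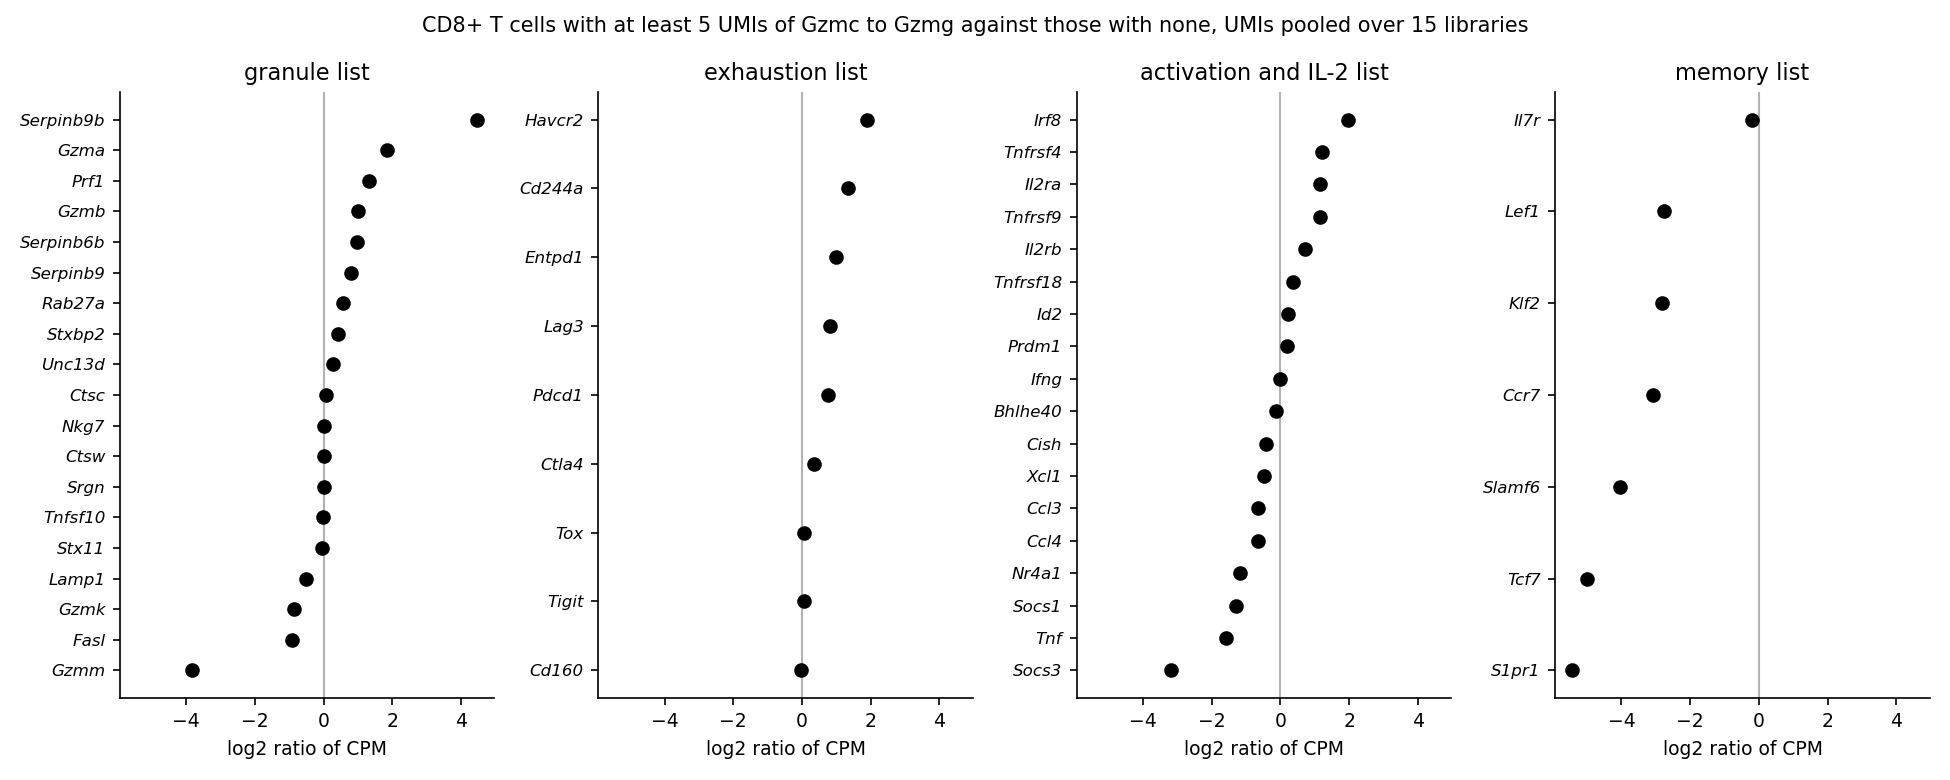
Ratio of CPM in CD8+ T cells with at least 5 UMIs of *Gzmc* to *Gzmg* to that in cells with none (x axis, log2), for genes of 4 lists, with UMIs pooled over 15 libraries, which weights libraries without PancVAX more among high cells than among the others. *Serpinb9b* has the highest ratio among granule genes (22.3 on the linear scale) and *Tcf7* and *S1pr1* have the lowest among memory genes.

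The antibody contrast that chose the genes ran as follows. *Gzmf* was 329 CPM in the PancVAX pool, 142 CPM with anti-PD-1 added, 115 CPM with anti-CTLA-4 and 44.5 CPM with both. By library, PancVAX alone had 186 CPM (whole tumor) and 453 CPM (Percoll), and PancVAX with both antibodies had 16.1 and 62.9 CPM. The 2 treatments did not overlap, but with 2 libraries each in the contrast that chose the genes, nothing is read from that. *Gzmd* was 57.8 CPM with PancVAX, 13.8 with anti-PD-1 added, 23.3 with anti-CTLA-4 and 2.64 with both. *Gzmc* was 105 CPM with PancVAX, 50.4 with anti-PD-1, 96.2 with anti-CTLA-4 and 24.2 with both, and *Gzme* was 45.0, 25.6, 46.9 and 9.52 CPM in that order. *Gzmc* and *Gzme* with anti-CTLA-4 added thus lay near PancVAX alone. *Gzmg* was 16.3 CPM with PancVAX (75 UMIs), 1.41 and 1.71 CPM with 1 antibody and 0 UMIs with both. In the PancVAX pool 62 of these UMIs were in 1 cell of the Percoll library, and the whole-tumor library had 6 UMIs (2.81 CPM).

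In ratios, PancVAX with both antibodies was 4.34-fold lower than PancVAX for *Gzmc*, 21.9-fold for *Gzmd*, 4.72-fold for *Gzme* and 7.39-fold for *Gzmf*. In the fit over 16 libraries the log2 fold changes of the first 4 were -2.10, -4.42, -2.27 and -2.94, and 1.05% of all genes lay below -1 in that contrast. Anti-PD-1 alone added to PancVAX gave -1.05, -2.08, -0.80 and -1.13, with 1.08% of genes below -1, and anti-CTLA-4 alone gave -0.12, -1.31, 0.07 and -1.43, with 1.17%. With both antibodies, no granule gene of 19 tested lay below -1, with *Gzmb* at -0.36, *Gzma* at -0.50 and *Prf1* at -0.37. The same contrast within *Pdcd1*+ *Havcr2*+ cells gave -5.78 for *Gzmd* and -3.94 for *Gzmf*. Without the upper limits on genes and UMIs per cell, it was -4.32 for *Gzmc* and -4.55 for *Gzmf*.

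The PancVAX effect compared the 4 pools with PancVAX and the 4 without, with each antibody as a covariate. Of the 4 pools with PancVAX, 3 are the antibody pools whose low levels led to the choice of these genes, so the values of the 5 genes are a description without a test. *Gzmf* was lower with PancVAX by 2.41 on the log2 scale (log2 fold change of -2.41 ± 0.36, SE, edgeR), *Gzmc* by 1.91 (-1.91 ± 0.30), *Gzmd* by 2.24 (-2.24 ± 0.51) and *Gzme* by 1.35 (-1.35 ± 0.31). *Gzmg* was at -2.81 ± 1.20. The first 4 lay past the limits for a call, from which nothing is read, in a fit where 4.37% of 10893 genes were called as lower, 7.33% as higher and 11.7% in either direction. The pool of PancVAX alone, which the choice of genes rested on, was the highest of the 4 with PancVAX for every gene but *Gzme*, where PancVAX plus anti-CTLA-4 lay just above it.

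These values rested on the upper limits of 3000 genes and 10000 UMIs per cell, taken from the study. Without them the log2 fold changes were -1.95 to -0.10 and none of the 5 lay past the limits for a call. The limits took out 1162 of 11199 CD8+ T cells, with a median of 13416.5 UMIs, of which 47.5% held a UMI of the 5 genes. Whether these are doublets or large single cells cannot be told from the counts. Those cells held 65769 UMIs of the 5 genes, 71.3% of all in CD8+ T cells, and the top cell, from PancVAX plus anti-PD-1, held 3710. In the PancVAX pool they held 84.3% of the UMIs. The summed level of the 5 genes in that pool was 553 CPM with the limits and 2416 CPM without them, against 1190 and 1659 CPM in the isotype control pool. The order of these 2 pools thus turned with the limits.

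**Figure D3:**
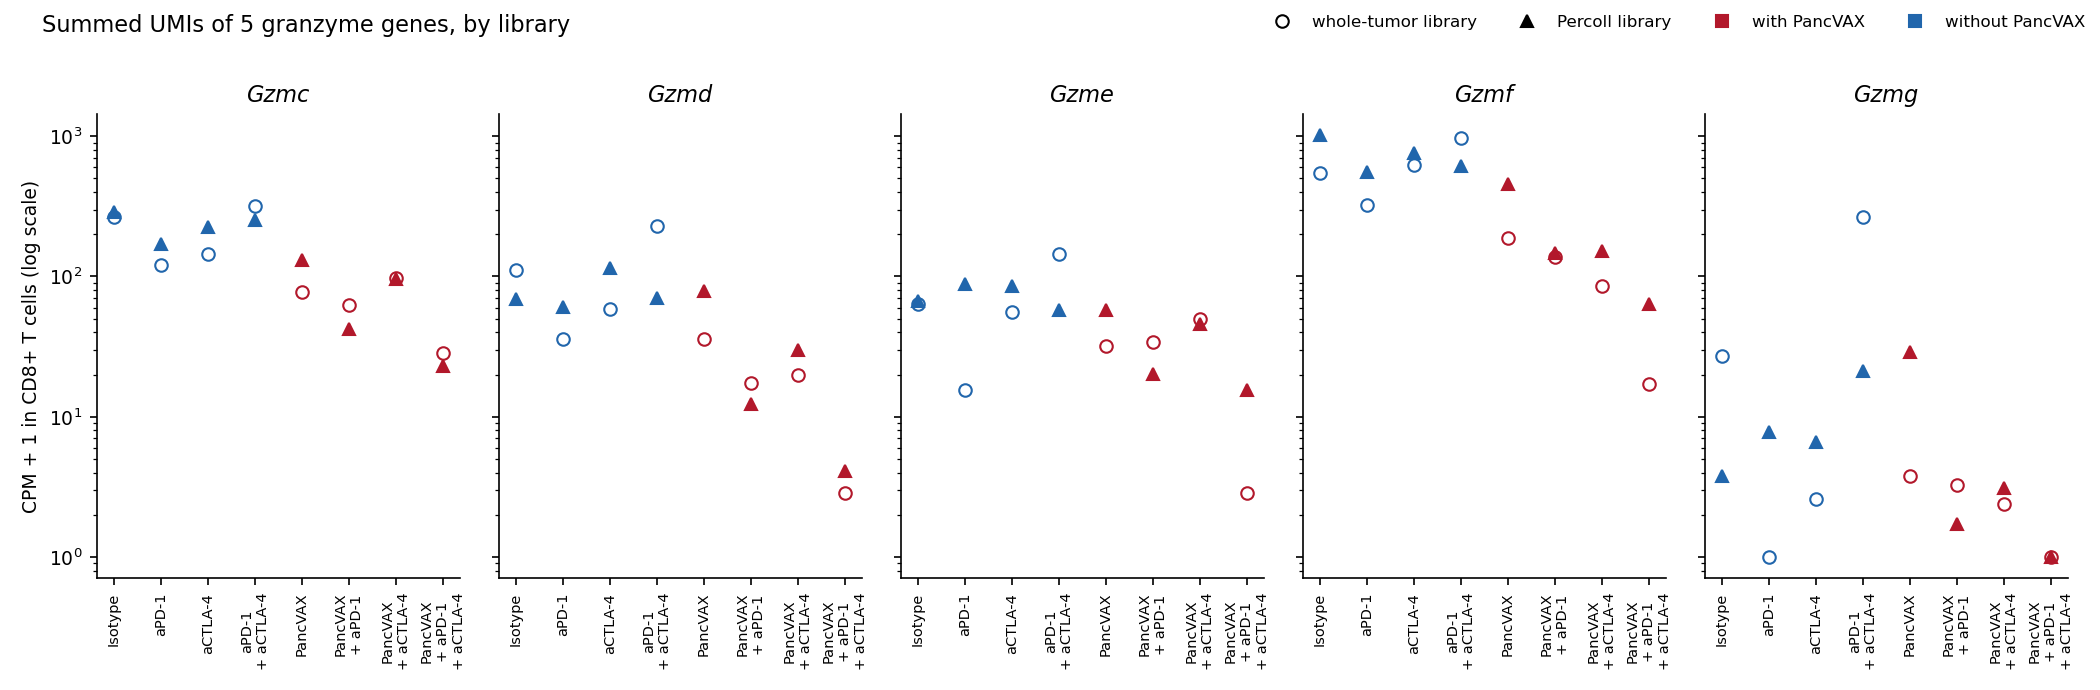
Level of each gene in the summed CD8+ T cells of each library (y axis, CPM + 1, log scale), by treatment (aPD-1, anti-PD-1; aCTLA-4, anti-CTLA-4), for whole-tumor (circles) and Percoll (triangles) libraries with PancVAX (red) and without it (blue). *Gzmf* runs from 16.1 to 453 CPM with PancVAX and from 322 to 1015 CPM without it, and *Gzmg* is at 265 CPM in 1 library of both antibodies.

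By library, the separation was as follows. *Gzmf* in whole-tumor libraries was 550.1 CPM with isotype control, 322 with anti-PD-1, 618 with anti-CTLA-4 and 973 with both antibodies. In Percoll libraries it was 1015, 553, 763 and 611 CPM. With PancVAX, the whole-tumor values were 186 alone, 138 with anti-PD-1, 84.6 with anti-CTLA-4 and 16.1 with both, and the Percoll values were 453, 145, 152 and 62.9 CPM. The Percoll library of PancVAX alone was the 1 library with the vaccine that lay above the lowest without it. *Gzmc* ranged from 120.2 to 318 CPM without PancVAX and from 21.9 to 129 CPM with it, and *Gzme* from 14.5 to 143 and from 1.87 to 57.1 CPM. Fitted on whole-tumor libraries alone or on Percoll libraries alone, the log2 fold change with PancVAX was -1.31 and -1.37 for *Gzme*, -2.74 and -2.19 for *Gzmf* and -1.83 and -1.99 for *Gzmc*.

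The share of cells that held the genes differed with and without these limits alike. After thinning, 4.12% ± 1.35 (SD, n = 4 pools) of CD8+ T cells held a UMI of the 5 genes with PancVAX and 17.4% ± 2.83 (n = 4) without it. The difference was -13.3 percentage points. The pools without PancVAX were 21.4% with isotype control, 17.2% with both antibodies, 16.4% with anti-PD-1 and 14.7% with anti-CTLA-4. Those with PancVAX were 5.81% alone, 4.30% with anti-PD-1, 3.84% with anti-CTLA-4 and 2.53% with both. The groups did not overlap, but the lower one again holds the pools that led to the choice of the genes, so no test is given. In the pool of PancVAX alone, 5.31% of macrophages and 5.08% of tumor or epithelial cells also held a UMI, although 0% of B cells and 1.69% of neutrophils did. The share of CD8+ T cells with at least 1 UMI there was thus not clear of background. Unthinned, cells with 5 or more UMIs were 3.42% of CD8+ T cells, 0.201% of macrophages and 0.252% of tumor or epithelial cells in that pool. In the other 7 pools the thinned share with a UMI ranged from 0.129% to 1.71% in macrophages. It was 0% to 1.28% in tumor or epithelial cells and up to 4.23% in B cells. The difference was -11.2 points in whole-tumor libraries, -14.6 in Percoll libraries and -14.8 without the upper limits. The median depth of CD8+ T cells was 3451 ± 50.5 UMIs with PancVAX and 4756 ± 340 without it, and the unthinned difference was -16.6 points.

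Of 19 other granule genes tested, 5 were higher with PancVAX and 1 was lower, beside a median of -0.01 for the list and 0.01 for all genes. In that fit, which also gave the list counts below, 7.33% of all genes were called as higher and 4.37% as lower. *Gzmb* was higher by 0.96 ± 0.13 on the log2 scale (edgeR, adjusted *P* = 3.66e-04), with 1242 to 1820 CPM in pools with PancVAX and 553 to 797 CPM in those without. Without the upper limits on genes and UMIs these ranges lay closer, at 1190 to 1722 CPM with PancVAX and 844 to 1146 CPM without it. Calls of the granule genes without those limits are not given. *Gzmk* rose by 1.11 ± 0.09 (adjusted *P* = 1.58e-05) and *Gzmm* by 1.34 ± 0.21 (adjusted *P* = 9.04e-04), and *Fasl* and *Stx11* also passed. *Serpinb9b* was the 1 called lower (-0.94 ± 0.24, adjusted *P* = 0.0142). *Nkg7* (-0.20), *Ctsc* (-0.45), *Rab27a* (-0.47), *Tnfsf10* (-0.48), *Lamp1* (0.27) and *Srgn* (0.16) had an adjusted *P* under 0.05 but a change of less than 0.5 and were not called. *Gzma* at 0.06 ± 0.37 and *Prf1* at -0.15 ± 0.12 did not pass. Nothing in the labels replicates a treatment over separate sets of mice, so these *P* values measure the spread among treatments. Of 9 exhaustion genes 5 were lower, with *Cd244a* at -1.44, *Tox* at -1.20, *Lag3* at -0.97, *Cd160* at -0.84 and *Havcr2* at -0.70. Of 7 memory genes 5 were higher, among them *S1pr1* at 2.41 and *Klf2* at 1.33, and none was lower.

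*Pdcd1*+ *Havcr2*+ cells made up 11.8% of CD8+ T cells without PancVAX and 5.04% with it. They held 42.1% and 44.6% of the UMIs of the 5 genes. These percentages pool cells over treatments and were not thinned. The median depth of CD8+ T cells averaged 4756 UMIs without PancVAX and 3451 with it, and its part was not tested. Within this state, the share with a UMI after thinning was 38.9% ± 5.76 without PancVAX and 21.4% ± 11.6 with it (SD, n = 4 pools each). The PancVAX pool was at 32.8%, just under the lowest pool without the vaccine at 33.0%. PancVAX with both antibodies was at 6.52%. The PancVAX effect on the summed counts of this state was -1.21 ± 0.33 for *Gzmc*, -1.32 ± 0.46 for *Gzmf* and -0.22 ± 0.47 for *Gzme* (log2 fold change, SE, edgeR). None of the 5 lay past the limits for a call, from which nothing is read, where 1.35% of 6423 genes were (956 at an unadjusted *P* under 0.05). *Gzme* and *Gzmg* turned above 0, to 0.43 and 0.41, without the whole-tumor library of both antibodies. Without the upper limits, *Gzmc* was at -0.31, *Gzmd* at -0.13, *Gzme* at 0.10 and *Gzmg* at 0.87, and *Gzme* was at 0.55 in Percoll libraries alone. In cells without *Pdcd1* the share was 7.50% ± 2.53 without PancVAX and 1.79% ± 0.66 with it, and in cycling cells 27.4% ± 11.4 and 7.78% ± 5.38. In macrophages the share averaged 1.77% ± 2.37 over the pools with PancVAX. The pools of PancVAX with antibodies led to the choice of the genes, so nothing is read from the differences in share within these states.

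PancVAX alone against isotype control shares its libraries with the choice of genes and is given as values. The log2 fold changes were -1.46 for *Gzmc*, -0.70 for *Gzmd*, -0.59 for *Gzme*, -1.34 for *Gzmf* and 0.31 for *Gzmg*, and 3.04% of genes lay below -1. Within *Pdcd1*+ *Havcr2*+ cells they were -0.66, 1.00, 0.95, 0.24 and 1.78 in the same order.

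In the main fits, antibodies without PancVAX gave no call among the 5 genes. Against isotype control, both antibodies gave 0.06 for *Gzmc*, 0.66 for *Gzmd*, 0.60 for *Gzme*, 0.17 for *Gzmf* and 2.96 for *Gzmg* on the log2 scale (edgeR, adjusted *P* of 0.238 or more, 0.137% of genes called). All 5 of these turned below 0, from -0.64 to -0.03, without the whole-tumor library of both antibodies, which held the cell with 1318 UMIs. Anti-PD-1 gave -0.90 for *Gzmc* (adjusted *P* = 0.0624) and -0.79 for *Gzmf* (adjusted *P* = 0.516), where 0.255% of genes were called. Anti-CTLA-4 gave -0.54 for *Gzmc* and -0.08 for *Gzmf*, where 0.225% were called. At an unadjusted *P* under 0.05 these 3 fits held 692, 753 and 709 of 10204 genes. With DESeq2 none of the 5 genes was called in these 3 contrasts either. When only the 4 libraries compared were fitted, 3 of the 5 were called with both antibodies, 3 with anti-PD-1 and 2 with anti-CTLA-4. The shares of genes called above belong to the fits over 16 libraries. None is given for the fits of 4 libraries, so nothing is read from these counts. All the antibody fits counted both libraries of a treatment as units, although they may hold the same mice. Their *P* values thus measure the spread between libraries. Whether antibody effects with and without PancVAX differed was not tested.

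Between the 2 preparations, which were also the sequencing batches, 1 gene was called in the main fit. *Gzmf* was higher in Percoll than in whole-tumor libraries by 0.53 ± 0.16 on the log2 scale (edgeR, adjusted *P* = 0.021), where 2.98% of genes were called as higher and 6.03% in either direction. The other 4 ranged from -1.53 (*Gzmg*) to 0.17 (*Gzme*) and did not pass. *Gzmf* was not called with DESeq2, with a mitochondrial limit of 5%, without the limit on other-lineage UMIs or without shared barcodes, nor when either library of PancVAX alone, PancVAX plus anti-CTLA-4, PancVAX plus both antibodies, anti-PD-1 or isotype control was left out.

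Clones were read from the T cell receptor contigs of the 8 Percoll libraries, where a clone joins the cells of 1 library whose TRB chains shared V gene and CDR3 bases. Of 4476 CD8+ T cells with a TRB chain, in 2162 clones, 641 held a UMI of the 5 genes. Of these, 565 were in expanded clones of at least 2 cells. Cells of expanded clones held a UMI more often than single cells in all 8 libraries, 15.2% ± 9.43 against 3.80% ± 2.80 after thinning (SD, n = 8). The mean difference was 11.4 percentage points (exact two-sided sign-flip permutation test, *P* = 0.00781, the smallest that 256 sign patterns can give). It was largest with anti-PD-1 (29.1% against 4.35%) and smallest with PancVAX plus both antibodies (4.44% against 0.794%). The share was 4.26% to 8.51% in single cells without PancVAX and 4.44% to 9.34% in expanded cells with it. The libraries of PancVAX with antibodies belong to the pools whose low levels led to the choice of the genes. Nothing is therefore read from differences between libraries with and without PancVAX. The share of *Pdcd1*+ *Havcr2*+ cells was also higher in expanded clones in all 8 libraries, for example 21.0% against 5.80% with anti-PD-1, and its part in the difference was not tested. The median depth of expanded cells was 3652.5 to 6080 UMIs and that of single cells 3974.5 to 5470.

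**Figure D4:**
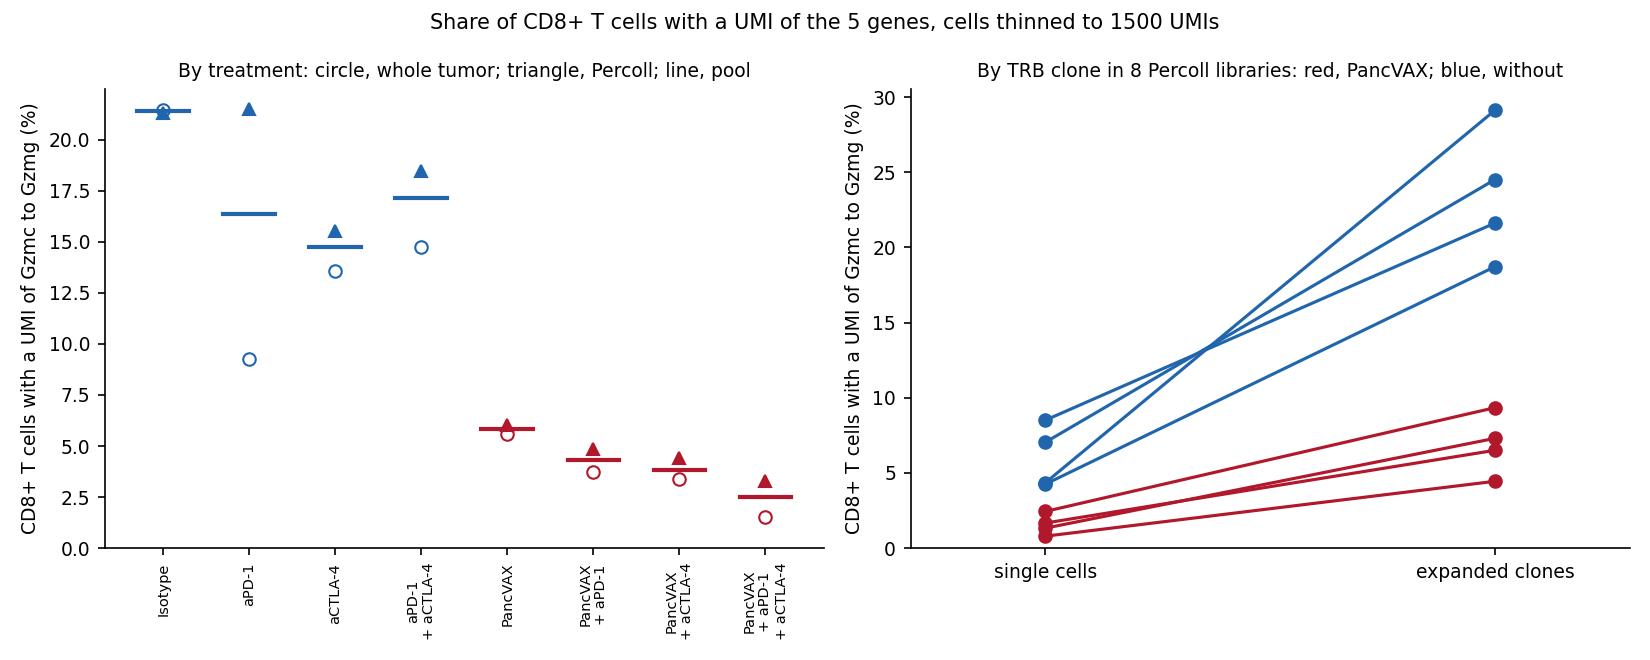
Share of CD8+ T cells with a UMI of *Gzmc* to *Gzmg* (y axis, %), each cell thinned to 1500 UMIs, by treatment (left; circles, whole-tumor libraries; triangles, Percoll libraries; lines, pools) and by clone size (right; 1 line per Percoll library). Red marks PancVAX. Pools with PancVAX lie between 2.53% and 5.81%, those without between 14.7% and 21.4%, and all 8 lines rise from single cells to expanded clones.

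Of the 2162 clones, 319 held a positive cell. All 12 clones with at least 20 CD8+ T cells did, but none of these was positive throughout, and the share ranged from 3.85% to 56.5% with a median of 30.9%. The clone with most positive cells was a TRBV13-1 clone in the anti-PD-1 library, with 26 of 46 cells and 456 UMIs, of which 306 were *Gzmf*. A TRBV5 clone with both antibodies had 22 of 51, and a TRBV20 clone in PancVAX plus both antibodies had 12 of 77.

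Among TRB chains with at least 10 positive cells, the 1 found in most pools joined TRBV16 to TRBJ2-7. It was met in 6 pools as 4 nucleotide forms of 1 amino acid sequence, and 27 of its 96 CD8+ T cells were positive. In the pool with most of them, both antibodies, the share was 25.5%, beside 28.5% of all expanded CD8+ T cells there without thinning. The forms are shown because cells with the same TRB protein differed in these genes. They read 5′ to 3′ over the 42 bases of the CDR3, with the 2 positions that differ in capitals.
Form 1: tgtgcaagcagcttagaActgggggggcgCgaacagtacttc
Form 2: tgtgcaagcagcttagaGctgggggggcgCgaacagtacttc
Form 3: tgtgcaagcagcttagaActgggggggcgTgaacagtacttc
Form 4: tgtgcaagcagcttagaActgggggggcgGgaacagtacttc
Form 1 was in 77 cells of 4 pools, and 21 were positive. Form 2 had 1 positive cell of 10, all in PancVAX plus both antibodies. Form 3 had 5 of 7 in the isotype control pool, and form 4 had 0 of 2. By pool the chain was positive in 13 of 51 cells with both antibodies, 6 of 14 with isotype control, 5 of 16 with anti-PD-1 and 2 of 3 with PancVAX alone. These counts are too small to compare. Of 1985 TRB chains by V gene and amino acid sequence, 96 were in at least 2 pools, and 44 of these had a positive cell.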

How the data were processed

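The authors deposited UMI counts per gene and barcode for 16 libraries, made with Cell Ranger 4.0.0 on mm10 from a 5′ kit per the labels, and receptor contigs for 8 Percoll libraries. A processed R object was not used here. Barcodes were kept with 200 to 3000 genes, 1000 to 10000 UMIs, under 10% mitochondrial UMIs and no hemoglobin UMI. No doublet caller was run. T and NK cells with 3 or more UMIs of other lineages were left out. The gates of the other cell types did not have this limit and left out cells with *Cd3* or *Ncr1* UMIs. Cell types were gated on marker UMIs without the 5 genes. Counts were summed over the cells of a pool or library, and tested with edgeR 4.0.16 (quasi-likelihood, TMM, filterByExpr) in R 4.3.3 over all genes. A gene was called with a Benjamini-Hochberg adjusted *P* under 0.05 and an absolute log2 fold change above 0.5. DESeq2 1.42.0, other cell limits, no filter and leaving out libraries were alternatives. Preparation was a covariate in fits over 16 libraries. Pools were the unit of the PancVAX and cell type comparisons, and libraries that of the antibody and preparation contrasts. The 5 genes had no test of the PancVAX effect in CD8+ T cells, since its pools led to their choice. Clone shares were compared in Python (numpy 2.4.6, pandas 2.3.3, scipy 1.17.1) with exact permutation tests. The edgeR and share scripts were tested on simulated data. The text names the 5 genes, genes of fixed lists and the 10 genes most like the 5 over libraries. The 5 genes and the lists were chosen with earlier results of these data known. A memory gene of the lists is not reported here.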

Additional observations from a re-analysis of the deposited data

Results flagged for a closer look

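Within the 4 pools with PancVAX, *Gzmg* stood apart in PancVAX alone at 16.3 CPM, with the next pool at 1.71 CPM, and 1 cell held 62 of its 75 *Gzmg* UMIs. Within the 4 pools without it, *Gzmg* stood apart with both antibodies at 107 CPM, with the next pool at 16.7 CPM, and *Gzmf* stood apart with anti-PD-1 at 458 CPM, with the next at 707 CPM. Each gap took up more of the group's range than Dixon's 95% limit allows. The first repeats the contrast that chose the genes. Chance alone passes the limit in about 1 of 20 groups, which bears on the other 2. In the pool of both antibodies 1 cell held 488 of the 596 *Gzmg* UMIs.

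With both antibodies added, 2 genes had changes of opposite sign with and without PancVAX in both preparations. *Gzmd* in CD8+ T cells changed by -32.8 CPM (whole tumor) and -74.7 CPM (Percoll) with PancVAX, and by 118 and 1.44 CPM without it. *Gzmg* changed by -2.81 and -28.0 CPM with PancVAX, and by 238 and 17.3 CPM without it. The whole-tumor library of both antibodies had 1 cell with 488 of its 524 *Gzmg* UMIs and 1 with 217 of its 451 *Gzmd* UMIs. Without that library the log2 fold change of both antibodies against isotype control was -0.61 for *Gzmd* and -0.03 for *Gzmg*. The genes were chosen for the change with PancVAX, and the difference between the 2 settings was not tested.

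In γδ T cells, which no comparison used, 4.14% of 169 cells held a UMI of the 5 genes after thinning (95% exact binomial interval, 1.68% to 8.35%). The share was 0.738% in B cells over all pools, but 4.23% in the B cells of the pool of both antibodies without PancVAX. Unthinned, the γδ T cells held 36 UMIs of the 5 genes, 19 of them in 1 cell.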

How the results depend on the processing

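The difference in the share of CD8+ T cells with a UMI lay below 0 in all 27 alternatives, which the choice of genes favours (-16.6 to -7.69 points; -14.6 to -11.5 points with 1 library left out). The clone difference kept both in all 18 (6.86 to 13.7 points; 9.49 to 12.5 with 1 library left out). The PancVAX effect in CD8+ T cells, 4 of 5 genes called, gave 0 without upper limits on genes and UMIs and 3 to 5 with 1 library left out (3 without the Percoll library of anti-PD-1, which ended the call of *Gzme*). In *Pdcd1*+ *Havcr2*+ cells 0 were called, against 4 without a filter on low counts, 4 without the pool of PancVAX alone, 1 with a mitochondrial limit of 5%, 1 without each library's top cell, 1 without shared barcodes and 0 to 1 with 1 library left out. Leaving out the pool of PancVAX alone keeps the pools whose low levels chose the genes, so its calls, like the other PancVAX calls of these genes, carry no support. In NK cells no filter gave 1, against 0, and 0 to 0 with 1 library left out. For both antibodies against isotype control, 0 were called, against 3 without a filter, 1 without the pool of PancVAX alone, 3 in the 4 libraries alone and 0 to 2 with 1 library left out. For anti-PD-1 the counts were 4, 1, 3 and 0 to 1, and for anti-CTLA-4 they were 2, 0, 2 and 0 to 0. Of 27 alternatives, the count differed from 0 in 6 for both antibodies, 12 for anti-PD-1 and 2 for anti-CTLA-4. For Percoll against whole tumor, 1 was called, against 0 with DESeq2, 2 without a filter, 0 with a mitochondrial limit of 5%, 0 without the limit on other-lineage UMIs, 0 without shared barcodes and 0 to 1 with 1 library left out. CD8+ against CD4+ T cells gave 1, against 2 without a filter, 2 without top cells and 1 to 2 with 1 library left out. CD8+ against NK cells gave 5, 4 with DESeq2 and 5 to 5 with 1 library left out. In the comparisons of cell types the counts include genes that entered through CD8+ T cells alone and carry no support. Why the counts differed between settings was not tested. Shares of all genes called are given for the main fits only, so the counts of the alternatives are a description.

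The library titles give no replicate number, so the libraries of a treatment were numbered by preparation. Fitting 16 libraries with preparation as a block called 5 genes for the PancVAX effect, 0 in *Pdcd1*+ *Havcr2*+ cells and 0 in NK cells. Dropping the block from the antibody contrasts left 0 called in each. The shares of all genes called in these fits are not given, so nothing is read from the counts. Removing top cells and shared barcodes were alternatives chosen after seeing the data. Few cells hold most UMIs, a library held 11 to 37 NK cells, and what could be detected with such numbers was not tested.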

Other observations

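Over the 16 libraries, the genes whose log2 CPM in CD8+ T cells ran most like the sum of the 5 granzymes, out of 10199 genes compared, were *D630039A03Rik* (Pearson r of 0.92), *Arl5a* (0.88), *Rgs3* (0.86), *Tmed3* (0.86), *Sema6d* (0.86), *Ripply3* (0.85), *Irf8* (0.85), *Ccdc112* (0.85), *Emid1* (0.84) and *Igflr1* (0.83). The points share libraries, treatments and depth, so the values describe the libraries only, and no *P* is given. Within the libraries with PancVAX, r ran from 0.40 (*Emid1*) to 0.79 (*D630039A03Rik*), and within those without it from 0.27 (*Igflr1*) to 0.90 (*Emid1*), with *Arl5a* at 0.31. *Irf8*, a transcription factor of activated T cells, averaged 284 CPM without PancVAX and 123 CPM with it. *Havcr2* had an r of 0.70, *Pdcd1* 0.49 and *Prf1* 0.33. *Gzmb*, the neighbour on the chromosome, had an r of -0.53, although it was higher in high cells in all 15 libraries compared, and *Gzmk* had -0.67.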
